A study of Mus musculus with 4 samples.

Results

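The expression of 9 genes that write, erase or read cytosine methylation was examined in mouse primary myoblasts with and without a functional Tet2 gene: Tet1, Tet2, Tet3, Dnmt1, Dnmt3a, Dnmt3b, Uhrf1, Tdg and Mbd4. They were found by their gene symbols among the 24445 genes of the RNA sequencing table, and all 9 were listed there once. The question was whether other writers, erasers or readers of DNA methylation were expressed differently when Tet2 was disrupted. Muscle stem (satellite) cells of C57BL/6 mice were isolated from the hindlimb by a sort for CD34 and Integrin a7 that left out cells positive for the dead-cell stain PI, CD45 or CD11b (leukocytes), CD31 (endothelium) or Sca1. They were grown on type I collagen in a proliferation medium for at least 3 days into MyoD+ myoblasts, and no other treatment was named. The Tet2 KO group and the wild type (WT) group had 2 libraries each, and the groups shared the named strain, sort and culture. The study's methods name a supplier for C57BL/6 mice and a laboratory for Tet2 KO mice, so the source of the mice may differ between groups. By default the study used male mice of 1 age range. The study describes the Tet2 KO as constitutive, with exon 3 of the gene absent from every cell type of the animal. Whether each library came from 1 mouse or from pooled mice, and whether WT mice were littermates, was not given in the sources used here.

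The table gives 1 expression value per gene and group, in FPKM (fragments per kilobase of transcript, scaled to the number of mapped fragments). Each was read here as the authors' value for a whole group. The study's methods describe comparisons by pairs of samples, KO with WT, without saying how libraries were combined, so whether both libraries of a group entered its value is not known. The values used here carry no replicate error and nothing per library, so no test between the genotypes was run on them and differences are only described. Counting error alone could be gauged. Among 2731 genes with 1 annotated transcript of at least 2000 bases, the lowest values lay at regular steps, and the first step, read as 1 fragment, was 0.0193 FPKM × kb in Tet2 KO and 0.0191 in WT. Of the values up to 4 steps, 81.4% in Tet2 KO and 78.0% in WT lay within 0.1 step of a whole number. These steps correspond to about 51900000 fragments in Tet2 KO and 52300000 in WT. The first step was sought in the same preset range in both groups, which limited how far the steps could differ. The values had also been normalised by the authors, so whether the groups were of like depth was not settled. Counted with each gene's longest transcript, which gives too many where shorter forms prevail, about 271 fragments stood behind Tet1 in Tet2 KO and about 24905 behind Uhrf1.

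DNA methyltransferases place methyl groups on cytosines, mostly at CpG sites. Dnmt1 copies the pattern to the new strand after replication, guided by Uhrf1, which binds hemimethylated CpG sites, whereas Dnmt3a and Dnmt3b can methylate unmarked DNA. The Tet dioxygenases oxidise methylcytosine with iron and alpha-ketoglutarate, and the oxidised bases are lost on replication or cut out by the glycosylase Tdg. Mbd4 binds methylated CpG sites and removes thymine that arises when methylcytosine is deaminated. In muscle, DNA methylation is known to be remodelled as satellite cells become myoblasts and fuse.

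Short coding sequences of the enzymes are shown because they mark what the deleted Tet2 exon holds and what each family shares. They were read from the genome build NCBIM37 (mm9) by the GENCODE vM1 annotation, 5′ to 3′ on the coding strand, and each lies in a coding exon. Exon 3 of Tet2 begins its coding part with the start codon, in capitals, at chr3:133151576-133151635 on the minus strand.
Tet2 exon 3: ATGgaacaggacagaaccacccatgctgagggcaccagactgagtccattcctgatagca
In the Tet stretches, the capitals mark the codons of the histidine and the aspartate that hold the catalytic iron. Tet1 is shown from exon 11 at chr10:62277190-62277249, Tet2 from exon 9 at chr3:133134310-133134369 and Tet3 from exon 9 at chr6:83323194-83323253, all on the minus strand.
Tet1: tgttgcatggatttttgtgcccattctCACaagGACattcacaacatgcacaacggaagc
Tet2: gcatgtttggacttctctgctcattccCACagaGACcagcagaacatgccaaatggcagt
Tet3: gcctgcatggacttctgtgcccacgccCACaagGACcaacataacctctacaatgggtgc
In the Dnmt stretches, the capitals mark the codon of the catalytic cysteine. Dnmt1 is shown from exon 32 at chr9:20716227-20716286 on the minus strand, Dnmt3a from exon 18 at chr12:3902399-3902458 and Dnmt3b from exon 19 at chr2:153502925-153502984, both on the plus strand.
Dnmt1: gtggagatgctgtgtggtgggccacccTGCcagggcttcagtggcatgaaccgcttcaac
Dnmt3a: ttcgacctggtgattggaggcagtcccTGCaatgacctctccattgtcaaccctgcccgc
Dnmt3b: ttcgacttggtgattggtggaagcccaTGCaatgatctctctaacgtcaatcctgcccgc

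Within these 60-base stretches, Dnmt3a and Dnmt3b had 50 identical bases, whereas Dnmt1 shared 30 with each of them. The Tet stretches shared 39 bases between Tet1 and Tet2, 42 between Tet1 and Tet3 and 41 between Tet2 and Tet3. Over the whole longest transcripts, untranslated parts included, the longest identical run was 18 bases for Dnmt3a with Dnmt3b. It was at most 17 bases for any pair of Tet genes.

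Tet2, the targeted gene, was still read in the Tet2 KO libraries, at 5.79 FPKM against 6.64 FPKM in WT. The Tet2 KO value was 0.871 of the WT value, a log2 difference of -0.17 on the log2(FPKM + 1) scale used throughout unless stated. The gene lies at chr3:133126641-133207354. Exon 3 of its 11 exons, at chr3:133148476-133151681, holds 3206 bases, or 34.9% of the longest transcript, and 55.1% of the coding bases. It is present in both of the 2 coding transcripts and holds the start codon, whereas the iron-binding codons at positions 1295 and 1297 lie in exon 9, outside the deletion. The other exons make up 65.1% of the longest transcript. FPKM is scaled to transcript length, so a transcript without exon 3 may read low at equal numbers. Whether Tet2 transcripts were fewer in Tet2 KO cannot be told from this value. The table gives 1 value over the whole gene and none for exon 3, so the Tet2 value does not check the genotype labels.

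**Figure D1:**
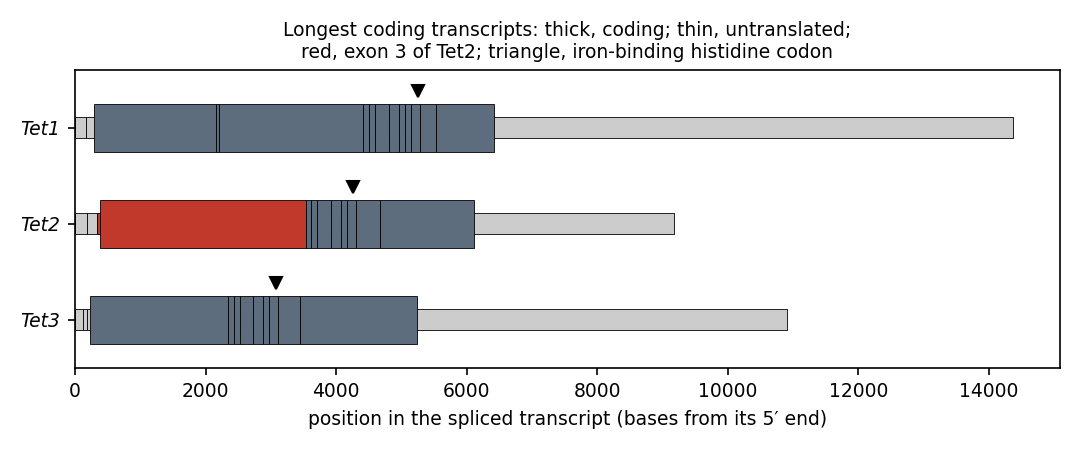
Exons of the longest transcripts of Tet1, Tet2 and Tet3, drawn to scale with position along the transcript in bases on the x axis, with the coding part, exon 3 of Tet2 in red and the iron-binding histidine codon marked by a triangle. Exon 3 takes up 3206 of the 9179 bases of Tet2 and lies apart from the iron-binding codons.

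The other Tet genes were both expressed below Tet2. Tet3, which oxidises methylcytosine like Tet2, had 3.70 FPKM in Tet2 KO versus 3.39 in WT, a ratio of 1.09. Its log2 difference was 0.10, or 0.13 without the pseudocount. Tet1, the family member best known from embryonic stem cells, had 0.364 FPKM in Tet2 KO versus 0.484 in WT, a log2 difference of -0.12, or -0.41 without the pseudocount. Tet3 was thus slightly higher and Tet1 slightly lower in Tet2 KO. Counting error had an SD of 0.05 for the log2 ratio of Tet3 without the pseudocount and 0.12 for that of Tet1, before any spread between mice or cultures.

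Set against the Tet2 level of WT myoblasts, the difference in Tet1 and Tet3 was small. The summed FPKM of Tet1 and Tet3 was 4.06 in Tet2 KO and 3.87 in WT, and this difference equalled 2.88% of the WT Tet2 level. Tet3 alone was higher by 4.69% of the WT Tet2 level. The Tet genes together had 9.85 FPKM in Tet2 KO versus 10.5 in WT. Tet2 contributed 58.7% of that sum in Tet2 KO and 63.2% in WT, Tet3 37.6% and 32.2%, and Tet1 3.69% and 4.60%. The order Tet2, Tet3, Tet1 was the same in both groups. Since exon 3 was deleted in the KO mice, the Tet2 share of the sum is a share of FPKM and not of intact enzyme. In Tet2 KO the sum and the shares also carry the length limit given above for Tet2.

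Neither glycosylase stood apart between the genotypes. Tdg had 10.6 FPKM in Tet2 KO versus 10.3 in WT, a log2 difference of 0.03. Mbd4 had 3.95 FPKM in Tet2 KO versus 4.29 in WT, a log2 difference of -0.10. Both values of Tdg were above those of Mbd4, by 2.68 times in Tet2 KO and 2.41 times in WT.

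The Tdg value is uncertain, because the genome holds near-identical copies of it. A search with its longest transcript found 4 further places with at least 95% identity over at least 10% of the transcript. One of them, chr10:41772360-41775242, matched 82.4% of the transcript in 2 pieces at 99.3% identity and contains the shorter pseudogene Gm9855, at chr10:41773919-41775160 in GENCODE vM1. The deposited table lists Gm9855 at the locus of Tdg itself, chr10:82092583-82153395, with 12.5 FPKM in Tet2 KO versus 11.2 in WT. Reads could therefore have been split between both names, and the sum of Tdg and Gm9855 was 23.1 FPKM in Tet2 KO versus 21.5 in WT. Of the other members, Uhrf1 had 1 copy, covering 72.0% of its transcript on chromosome X at 97.7% identity, and Dnmt3b had 1, covering 15.7% of its transcript at 98.7% identity near the gene on chromosome 2. The other 6 members had none.

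The methylation writers were dominated by Dnmt1. Dnmt1, the maintenance enzyme, had 89.1 FPKM in Tet2 KO versus 82.8 in WT, a log2 difference of 0.10. Uhrf1, its recruiting partner, had 133.9 FPKM in Tet2 KO versus 121.3 in WT, a log2 difference of 0.14. Both were higher in Tet2 KO, and the ratio of Uhrf1 to Dnmt1 was 1.504 in Tet2 KO and 1.465 in WT.

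Dnmt3a, which methylates unmarked DNA, had 2.34 FPKM in Tet2 KO versus 2.96 in WT. Its log2 difference of -0.24, or -0.34 without the pseudocount, was the largest in size among the 8 members with a mean of at least 1 FPKM, and 20.2% of all genes with such a mean had a larger one. Dnmt3b, its relative, had 1.252 FPKM in Tet2 KO versus 1.264 in WT, a log2 difference of -0.0079, or -0.014 without the pseudocount. The FPKM of Dnmt3a and Dnmt3b together was 3.60 in Tet2 KO and 4.22 in WT, so that Dnmt1 exceeded their sum 24.8 times in Tet2 KO and 19.6 times in WT. Counting error had an SD of 0.06 for the log2 ratio of Dnmt3a without the pseudocount and 0.12 for that of Dnmt3b. At that precision the Dnmt3b groups could not be told apart, and for Dnmt3a the spread between cultures is not known.

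**Figure D2:**
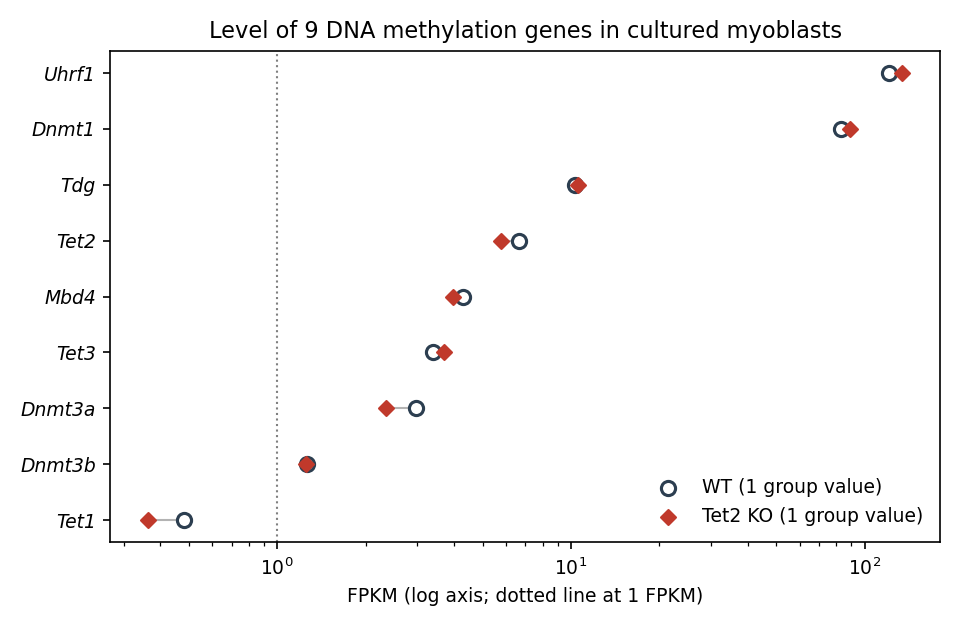
Authors' group expression values of the 9 genes in FPKM on a log axis, with 1 point for Tet2 KO and 1 for WT and no error bars, since each group has 1 value. The points of a gene lie close together while the genes spread from 0.364 to 133.9 FPKM.

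The levels of the 9 genes differed far more between genes than between genotypes. By the mean FPKM of both groups, the order was Uhrf1 (127.6), Dnmt1 (85.9), Tdg (10.5), Tet2 (6.22), Mbd4 (4.12), Tet3 (3.54), Dnmt3a (2.65), Dnmt3b (1.26) and Tet1 (0.424), a 301-fold range. This order was the same in each genotype. Uhrf1 lay above 93.9% of the genes with a mean of at least 1 FPKM and Dnmt1 above 90.5%, whereas Dnmt3a lay above 12.8% and Dnmt3b above 2.94%. With 1 value per group, whether neighbours in this order differ beyond their spread was not tested.

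None of the 8 members with a mean of at least 1 FPKM differed by 1.5-fold or more in either direction. Of the 11692 genes with such a mean, 3.72% were higher in Tet2 KO by at least 1.5-fold and 2.89% were lower. At these shares, 0 of 8 is near the background and is not a result about the members. Of the 8 members, 4 were higher and 4 lower, with a median log2 difference of 0.01 beside -0.0044 for all 11692 genes. Tet2 is among the 4 lower ones, with the length limit given above. Tet1, the member under a mean of 1 FPKM, was also within 1.5-fold at 0.752 of the WT value. The median size of the difference was 0.10 over all genes. Dnmt3a, Tet2 and Uhrf1 were above that size, Dnmt1, Tet3 and Mbd4 close to it, and Tdg and Dnmt3b well below.

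Genes of like level gave the same picture. Among 2818 genes with a mean of 1 to 5 FPKM the median size of the log2 difference was 0.16 and its 90th percentile was 0.75, beside at most 0.24 for Tet3, Dnmt3a, Dnmt3b and Mbd4. Among 4312 genes with a mean of 5 to 20 FPKM these values were 0.10 and 0.37, beside at most 0.17 for Tet2 and Tdg. Among 4562 genes above 20 FPKM they were 0.07 and 0.28, beside at most 0.14 for Dnmt1 and Uhrf1. No member reached the 90th percentile of its own level class. By definition few genes of a class reach it, so this is near the background and is not a result about the members.

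**Figure D3:**
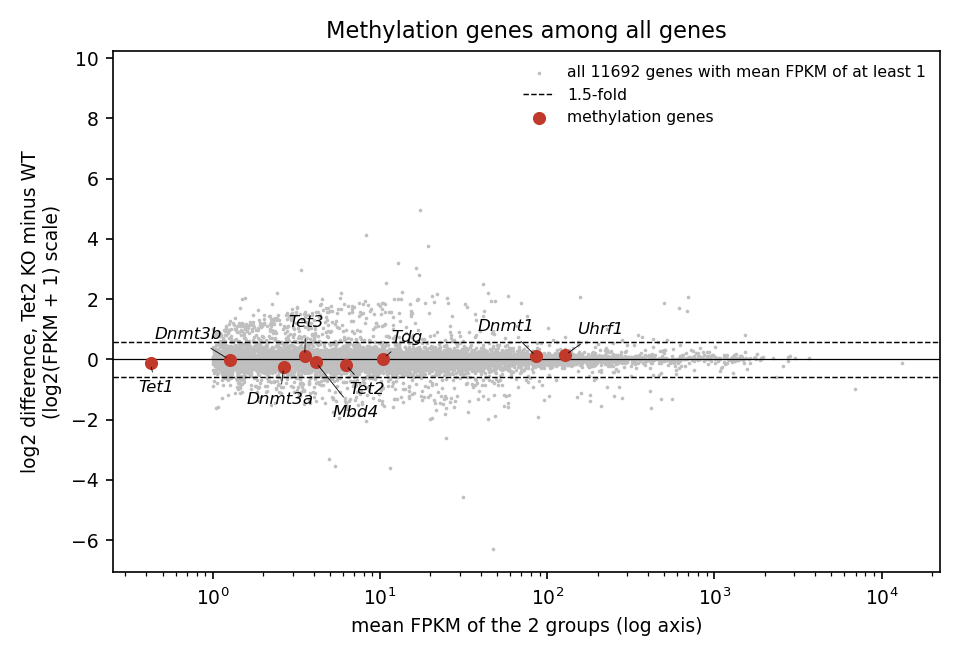
Log2 difference of Tet2 KO over WT on the log2(FPKM + 1) scale (y axis) against mean FPKM on a log axis (x axis) for the 11692 genes with a mean of at least 1 FPKM. All 9 members are named, including Tet1 below that mean, and dashed lines mark 1.5-fold. The members lie between -0.24 and 0.14, inside the lines.

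The groups differed in other respects that could move with these values. In bulk samples, fewer cells of a type and less RNA per cell cannot be told apart. The myoblast label held by its markers, since the myogenic regulator Myod1 had 313 FPKM in Tet2 KO versus 336 in WT and the intermediate filament gene Des had 372 and 449 FPKM. Of all genes with a mean of at least 1 FPKM, 3.72% were higher in Tet2 KO by at least 1.5-fold and 2.89% were lower. Differentiating muscle genes were lower in Tet2 KO by at least 1.5-fold in 5 of 6 cases, with a median log2 difference of -1.11. They ranged from -1.59 for the sarcomere gene Actn2 to -0.53 for Tnnt1. Leukocyte markers were higher by at least 1.5-fold in 12 of 12 cases, although CD45+ and CD11b+ cells had been removed by the sort. Their log2 differences ran from 0.88 for Cd14 to 2.07 for Lyz2, and their summed level was 472 FPKM in Tet2 KO versus 120 in WT. Ptprc, which encodes CD45, was not at 0 in either group, with 5.67 and 1.36 FPKM. Lymphocyte markers stayed at or below 1.09 FPKM, fibroblast markers summed to 14.7 and 8.72 FPKM with 1 of 4 at least 1.5-fold higher (Dcn, 0.95), and of the endothelial markers only Pecam1 reached a mean of 1 FPKM. The part of these cell types in the members' values was not tested.

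Genes of DNA replication were examined beside Dnmt1 and Uhrf1, whose RNA levels are known to rise in dividing cells. Of 14 replication genes none differed by 1.5-fold, beside 6.61% of all genes with a mean of at least 1 FPKM in either direction. In the list 13 genes were above 0, beside 48.8% of all such genes, and the median log2 difference was 0.12, close to the 0.10 of Dnmt1 and 0.14 of Uhrf1. The proliferation marker Mki67 had the highest log2 difference, 0.30, at 75.1 FPKM in Tet2 KO versus 60.7 in WT. The ribonucleotide reductase subunit Rrm2 followed with 0.25, and its partner Rrm1 was the 1 gene below 0, at -0.02. The topoisomerase Top2a had 269.8 FPKM in Tet2 KO versus 253.6 in WT. The part of replication in the values of Dnmt1 and Uhrf1 was not tested.

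The partners of the writers were examined in the same way. Of 11 expressed writer partners none differed by 1.5-fold, beside 6.61% of all genes with a mean of at least 1 FPKM. In this list 8 genes were above 0, beside 48.8% of all such genes, and the median log2 difference was 0.06. Pcna, the replication clamp that Dnmt1 binds, had 379 FPKM in Tet2 KO versus 356 in WT, and the corepressor Trim28 had 205.2 and 205.6 FPKM. Among these 11, the largest positive differences were 0.22 for the RNA methyltransferase Trdmt1 and 0.16 for Cdca7, a partner of the chromatin remodeller Hells. The largest negative ones were -0.05 for the histone deacetylase Hdac2 and -0.0076 for the histone methyltransferase Ehmt2. Dnmt3l, the inactive cofactor of Dnmt3a and Dnmt3b, had 0.623 FPKM in Tet2 KO versus 0.191 in WT, both under 1 FPKM. Its log2 difference of 0.45 was larger than that of any of the 11 expressed partners.

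Over all genes with a mean of at least 1 FPKM, 2.89% were lower by at least 1.5-fold and 3.72% higher. Among oxidation partners and base excision repair genes, 1 of 14 expressed genes was lower by that fold and none was higher. This was Gadd45a, a stress-induced adaptor that has been linked to DNA demethylation and growth arrest, with 36.5 FPKM in Tet2 KO versus 65.8 in WT, a log2 difference of -0.83. Of all genes with a mean of at least 1 FPKM, 4.32% had a larger difference. Its paralogue Gadd45g was at 87.7 and 103.0 FPKM, a log2 difference of -0.23. Ogt, which attaches sugar to proteins and binds Tet2 and Tet3, was at -0.27. The uracil glycosylase Ung, at 11.9 FPKM in Tet2 KO versus 9.49 in WT, had the largest positive difference, 0.30, followed by the glycosylase Neil3 at 0.15. The endonuclease Apex1, which cuts the site that a glycosylase leaves, had 75.3 and 71.4 FPKM. The list had 6 genes above 0 and 8 below, with a median of -0.08.

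Methyl-CpG-binding domain genes and other readers split evenly. The list also holds Mbd3, Mbd5 and Mbd6, which carry such a domain but are not known to bind methylated CpG selectively. Of 11 genes none differed by 1.5-fold, beside 6.61% of all genes with a mean of at least 1 FPKM. There were 6 above 0 and 5 below, and the median log2 difference was 0.0035. Mbd2, the reader with the highest level, had 54.9 FPKM in Tet2 KO versus 54.8 in WT, and Uhrf2, the paralogue of Uhrf1, had 36.7 and 40.6 FPKM. Zbtb38, a zinc finger protein that binds methylated DNA, had 20.6 FPKM in Tet2 KO versus 29.2 in WT, a log2 difference of -0.48, and its relative Zbtb4 was at -0.33. On the other side, Mbd3 was at 0.18 and Mbd5 at 0.13.

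Genes that supply the enzymes with methyl groups and cosubstrates did not reach 1.5-fold either. Of all genes with a mean of at least 1 FPKM, 6.61% did. Of 11 expressed methyl donor genes, 8 were above 0 and the median log2 difference was 0.03. Mat2a, which makes the methyl donor, had 177 FPKM in Tet2 KO versus 173 in WT, and Ahcy, which clears its product, had 104 and 122 FPKM, a log2 difference of -0.22. The serine hydroxymethyltransferases Shmt1 and Shmt2 had the largest positive differences, 0.31 and 0.23. Of 10 expressed genes that make or use alpha-ketoglutarate or handle ascorbate, 4 were above 0 and the median was -0.01. Idh1, the cytosolic enzyme that makes alpha-ketoglutarate, had 33.6 FPKM in Tet2 KO versus 47.1 in WT, a log2 difference of -0.47. Its mitochondrial counterpart Idh2 had 183 FPKM in both groups, and Idh3b had 109.6 and 110.0 FPKM. Gsto1, which can reduce dehydroascorbate, was at 0.29 and the ascorbate transporter Slc23a2 at 0.13.

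Germline genes, a class known to be kept silent by promoter methylation in body cells, were near or at 0 in both groups. Of 17 such genes, 4 were listed at 0 in both groups and 16 had at most 0.205 FPKM in either group. Sycp1 was the exception, with 1.73 FPKM in Tet2 KO versus 1.30 in WT, a log2 difference of 0.24. Over the 7 lists, 72 of 93 genes had a mean of at least 1 FPKM, of which none was higher and 1 was lower by at least 1.5-fold. Beside the 3.72% higher and 2.89% lower over all genes, so few calls among 72 genes are not read as a result about the lists.

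**Figure D4:**
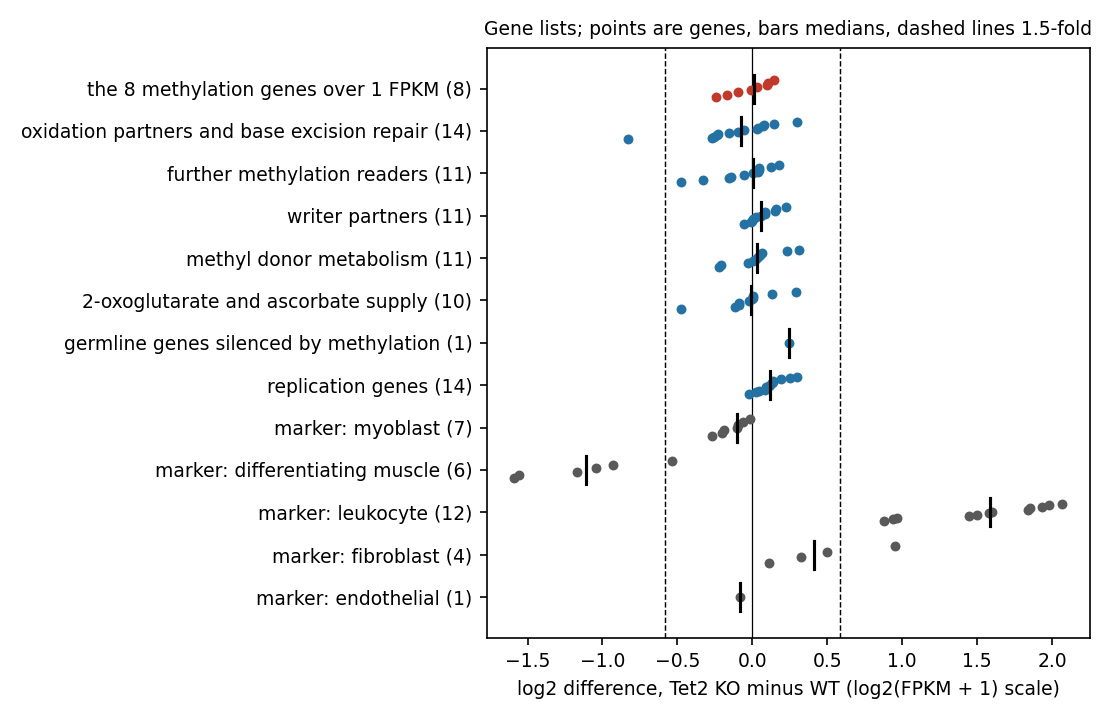
Log2 difference of Tet2 KO over WT on the log2(FPKM + 1) scale (x axis) for the members and for each gene list (rows), with 1 point per gene, list medians as bars and dashed lines at 1.5-fold. Gadd45a is the gene of the pathway lists beyond the lines, and the leukocyte and differentiating muscle markers lie to the right and left.

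The promoters of the members were mostly rich in the dinucleotide CG, which the choice of members did not use. They were set beside all windows and not beside those of expressed genes alone. Whether the richness is particular to the members was not tested. Windows of 300 bases around the start sites of all 9 members were available from RefSeq (GRCm38.p6), 14 windows in all. The dinucleotide CG occurred 2 to 57 times per window, with a median of 25.5 beside 7 over 32851 windows of the same length, and 13 of the 14 windows were above that median. The Tet2 window held 57, and 99.9% of all windows held fewer. The Dnmt1 windows held 2, 12 and 33, so the 1 window below the median belonged to a gene whose other starts were rich in CG. These counts describe sequence and not methylation, which was not analysed here.

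Some members share their listed locus with other genes, and the library kit did not keep strand. Genes of a shared locus are listed with the same coordinates, so whether the genes themselves overlap was not examined. The Tet3 locus was shared with B230319C09Rik at 1.06 FPKM in Tet2 KO versus 0.955 in WT, the Dnmt3a locus with the antisense gene Dnmt3aos at 0.106 and 0.118 FPKM, and the Tdg locus with Glt8d2 at 0.950 and 1.05 FPKM. Reads of a gene and of a partner on the other strand cannot be told apart where they overlap. Tet1, Tet2, Dnmt3b, Uhrf1 and Mbd4 had no such neighbour in the table, and Dnmt1 shared its locus with a microRNA gene listed at 0.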

How the data were processed

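Total RNA of 4 libraries (2 Tet2 KO, 2 WT) was extracted with TRIzol and prepared with a TruSeq kit. The authors trimmed reads, aligned them to mm9 with TopHat 2.0.13 and estimated expression with Cuffdiff 2.2.1. The annotation and the way libraries were combined are not given in the sources used here. The deposited values are FPKM, 1 per gene and group and read here as group values, normalised by the authors for gene length and depth. The table also holds the authors' own comparison (fold change, test statistic, p-value, q-value and flags), which was not used. Differences were computed as log2((Tet2 KO FPKM + 1) / (WT FPKM + 1)) over 11692 genes with a mean of at least 1 FPKM, and counted from 1.5-fold. The pseudocount of 1 understates differences of low genes. Library depth is not stated, and counting steps were read from low values. With 1 value per group and none per library no test was run. From each list the 2 genes of highest mean and up to 2 with the largest difference in each direction were named, further ones being named after their values were seen, and some genes that the rule names are not reported here. Members and lists were chosen with earlier results of these data known. Alternatives were other pseudocounts, filters, scalings and folds. Python 3.11.15, pandas 2.3.3, Biopython 1.88 and BLAST 2.17.0 were used, and the counting was tested on simulated data.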

Additional observations from a re-analysis of the deposited data

How the results depend on the processing

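No paired analysis was possible because the table holds 1 value per gene and group, and leaving out single libraries could not be run either. With 1 choice changed at a time (the pseudocount, the filter, the scaling or the fold), no member passed the fold of that setting in either direction and each member kept its sign, with log2 differences of -0.41 to -0.12 for Tet1, -0.20 to -0.17 for Tet2, 0.10 to 0.13 for Tet3 and -0.34 to -0.24 for Dnmt3a. Tet1 and Dnmt3a without a pseudocount lay past the log2 limit of 0.32 that was tried with the pseudocount of 1. Over all genes, 563 were higher and 448 lower with a pseudocount of 0.1, 577 and 469 with none, and 538 and 357 without a filter on low values. At a mean of at least 5 FPKM, 182 genes were higher and 207 lower, at a log2 limit of 0.32 in place of 1.5-fold 823 and 822, and at 2-fold 243 and 142, beside 435 and 338 as reported. Of the pathway lists, 4 genes were lower at the log2 limit of 0.32 and 0 at 2-fold, beside 1. No value per library was used, so the spread between mice and cultures is unknown, and RNA levels say nothing of protein, activity or methylation.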

Other observations

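A pair of further gene groups, added after the members' values had been seen, covered other enzyme families known for altering bases in DNA or RNA. The AlkB family, dioxygenases that use iron and alpha-ketoglutarate like the Tet enzymes but act mostly on damaged DNA or RNA, was expressed in all 9 cases. None of the 9 differed by 1.5-fold, beside 6.61% of all genes with a mean of at least 1 FPKM. This is near the background and is not a result about the family. The log2 differences ran from -0.20 for Alkbh7 to 0.07 for Alkbh6, with a median of -0.03. The RNA demethylase Fto had 13.7 FPKM in Tet2 KO versus 15.1 in WT.

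Of the APOBEC family, some members of which convert cytosine to uracil in DNA or RNA, 3 genes had a mean of at least 1 FPKM. Apobec1 had 4.08 FPKM in Tet2 KO versus 1.91 in WT, a log2 difference of 0.80. Apobec2, known from muscle, had 19.2 FPKM in Tet2 KO versus 30.7 in WT, a log2 difference of -0.65. Apobec3 was at 12.1 and 11.9 FPKM. Apobec1 thus lay on the side of the leukocyte markers and Apobec2 on the side of the differentiating muscle genes, and whether they come from those cells was not tested.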
